A study of Mus musculus with 18 samples.

Results

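The genes described here are 10 transcription factors of the activator protein 1 (AP-1) family and its immediate early companions: Fos, Fosb, Fosl1, Fosl2, Jun, Junb, Jund, Atf3, Batf and Egr1. They were picked by gene symbol and not by a measured threshold, but Fos was included with its lower value in unstimulated knockout cells already known from these same arrays. All 10 genes were chosen with earlier results of these arrays known. Of the 10 genes, 9 had a probe named to them and 8 were detected on at least 1 array and tested, among 12417 genes tested in all. Bone marrow-derived macrophages (BMM) were grown from bone marrow of C57BL/6 mice, either wild-type (WT) or lacking the nuclear receptor Nur77 (Nur77-KO), and their RNA was hybridised to Illumina MouseWG-6 v2 bead arrays. In both genotypes the cells were left without stimulus (0 h), given lipopolysaccharide (LPS, 100 ng/ml, 8 h) or given interleukin-4 (IL-4, 50 ng/ml, 8 h), which makes 6 groups of 3 arrays on 6 slides. The culture protocol in the labels gives batches of marrow from 3 WT and 3 Nur77-KO mice and does not say which array came from which mouse, so the p-values measure the spread between arrays, which may be partly technical. Mouse age and the Nur77 allele are not given in the labels. Without an untreated 8 h array, a response to LPS or IL-4 includes any change over 8 h of culture, whereas LPS and IL-4 arrays are matched in time.

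AP-1 is a pair of basic leucine zipper proteins: a Jun protein joins another Jun protein, a Fos protein or a relative from the ATF and BATF families, and the choice of partner sets which DNA sites are bound and whether transcription is switched on or held back. Fos, Jun, Egr1 and Atf3 are immediate early genes, transcribed shortly after a signal without new protein synthesis, mostly downstream of MAP kinases, and their mRNAs are usually short-lived. In macrophages LPS starts such a wave through Toll-like receptor 4, whereas IL-4 acts mainly through STAT6, and Nur77 (gene Nr4a1) is itself an immediate early gene that binds DNA at the NBRE sequence.

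The proximal promoters are shown because cyclic AMP response elements and related AP-1 sites in this stretch are known inputs to these genes. The RefSeq promoter table (build GRCm38.p6) held 8 of the 10 genes, all but Fosl1 and Egr1. The 150 bases before the start site are given for Fos at chr12:85473740-85473889 (plus strand), Jun at chr4:95052223-95052372 (minus strand), Junb at chr8:84978749-84978898 (minus strand), Atf3 at chr1:191183334-191183483 (minus strand) and Batf at chr12:85686570-85686719 (plus strand), each read 5′ to 3′ on the gene's strand. Fos and Batf thus share chromosome 12. Of the other genes, Fosb lies at chr7:19302696-19310118, Fosl2 at chr5:32136472-32157840, Jund at chr8:70697739-70700616 and Fosl1 at chr19:5447698-5455938 in the same build. Capitals mark TGACG, the half-site of the cyclic AMP response element, and in Jun the TGACATCA element.
Fos: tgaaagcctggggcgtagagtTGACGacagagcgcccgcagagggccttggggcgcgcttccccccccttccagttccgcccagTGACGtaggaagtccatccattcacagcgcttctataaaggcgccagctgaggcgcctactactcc
Jun: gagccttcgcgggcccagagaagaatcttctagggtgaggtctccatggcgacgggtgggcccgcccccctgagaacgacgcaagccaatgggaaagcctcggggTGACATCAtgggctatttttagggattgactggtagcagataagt
Junb: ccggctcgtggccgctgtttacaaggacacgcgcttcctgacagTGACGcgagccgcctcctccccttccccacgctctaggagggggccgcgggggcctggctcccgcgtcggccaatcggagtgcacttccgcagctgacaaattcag
Atf3: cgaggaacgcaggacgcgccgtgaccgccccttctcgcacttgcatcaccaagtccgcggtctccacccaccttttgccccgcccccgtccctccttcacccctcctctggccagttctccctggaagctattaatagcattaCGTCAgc
Batf: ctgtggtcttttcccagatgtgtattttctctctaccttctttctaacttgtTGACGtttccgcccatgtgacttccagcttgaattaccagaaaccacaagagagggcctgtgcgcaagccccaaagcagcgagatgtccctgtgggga
TGACG on either strand was found in the 250 bases before the start in 5 of the 8 genes (Fos, Fosb, Junb, Atf3 and Batf) and in 17.8% of all 32851 promoters in the table. Fos held 2 such half-sites, 129 and 66 bases before the start, and that of Atf3 reads on the opposite strand. TGACATCA was found in Jun alone, 45 bases before the start, and in 2.93% of all promoters. The complete element TGACGTCA (1.55% of all promoters, and holding the half-site), the AP-1 site TGACTCA (4.46%), the NBRE AAAGGTCA (1.34%), the STAT6 spacing, TTC and GAA with 4 bases between them (5.85%) and the CArG box (1.47%) had no match in these 8 windows. A kappaB match lay in Fos, Fosb and Fosl2, against 7.25% of all promoters. These are matches of letters in a short window and no measure of binding.

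All values are the authors' normalized log2 intensities, on which 1 unit is a 2-fold difference, and each gene is read from its brightest probe. The number of detected probes ranged from 11829 to 16283 over the arrays. The single Nr4a1 probe was detected on 0 of 18 arrays, so these arrays do not check the genotype. The labelled cell type was borne out, with 9 of 10 macrophage markers tested and all 9 detected on every array. Known responses also followed the labels, with the mean of 4 LPS response genes at 4.94 to 5.76 on arrays without LPS and 12.12 to 12.54 on Nur77-KO LPS arrays. Of the stimulated arrays, 1 per group correlated least with its own group, WT LPS replicate 3, Nur77-KO LPS replicate 1, WT IL-4 replicate 1 and Nur77-KO IL-4 replicate 1 (mean r of 0.960 to 0.968, against 0.974 to 0.979 for the other stimulated arrays). These 4 arrays were the lowest of their groups in stromal cell genes and the highest in neutrophil genes, and results that rest on them are given with and without them, a choice made after the data were seen.

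**Figure D1:**
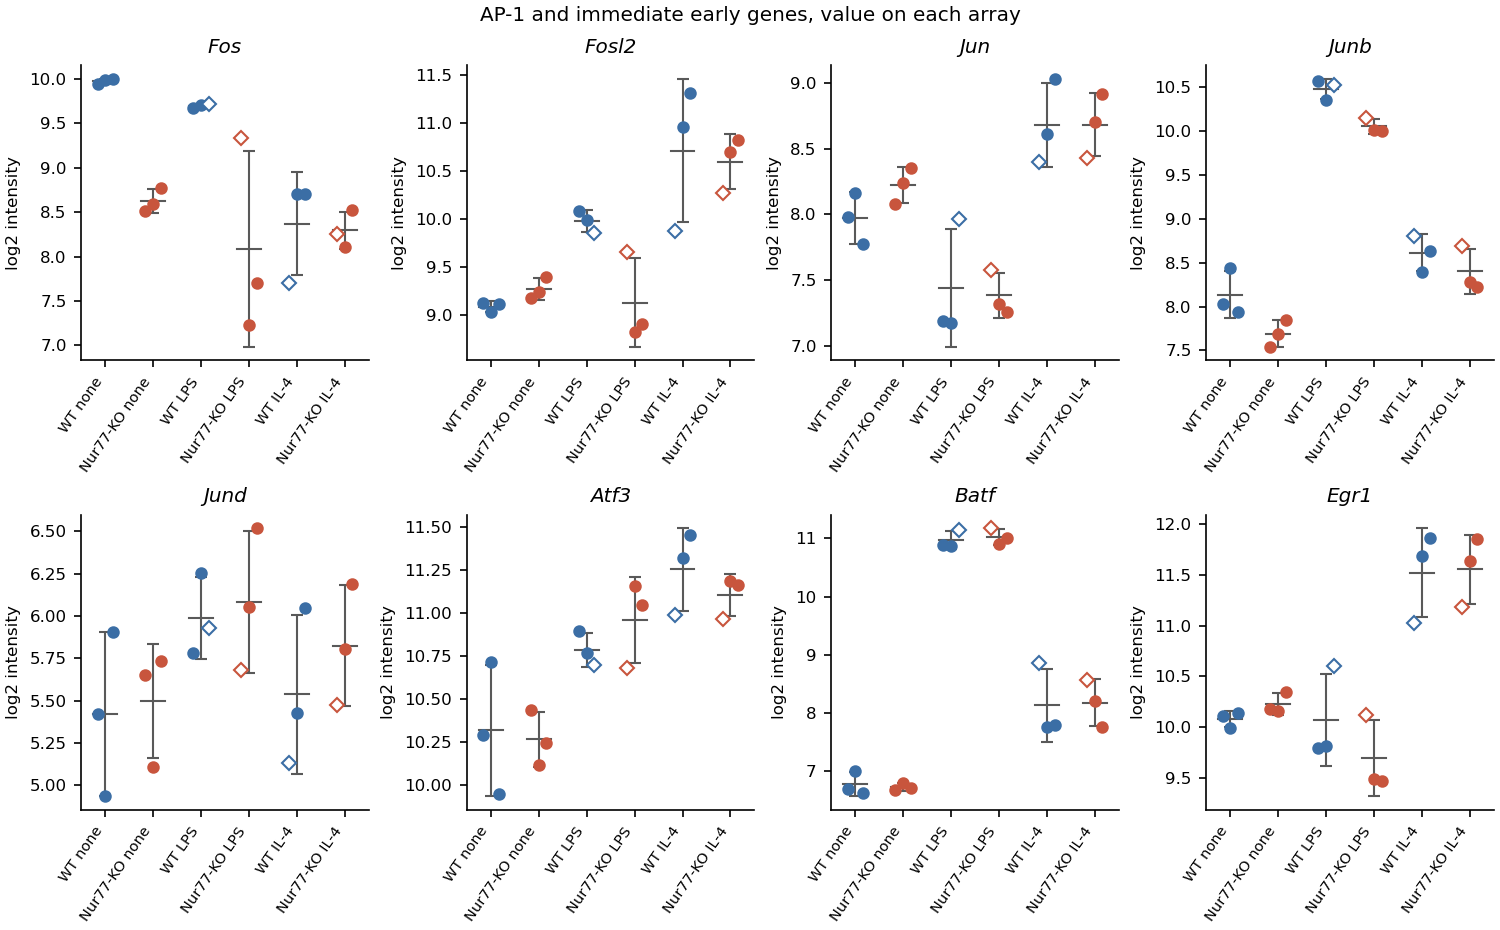
Log2 intensity (y axis) of the 8 tested genes on each array by group (x axis), blue for WT and red for Nur77-KO, with the group mean and SD as lines. Open diamonds mark the 4 stimulated arrays that correlated least with their own group. Batf and Junb lie highest with LPS in both genotypes, Egr1 lies highest with IL-4, and Fos lies lower on all Nur77-KO arrays than on all WT arrays within the unstimulated and the LPS groups.

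LPS was accompanied by higher Batf and Junb mRNA in both genotypes, and these were the largest responses among the 8 genes. With LPS against no stimulus, 3 of the 8 genes were called in WT BMM (adjusted p under 0.05), all higher, where 39.8% of all genes were called and 15.5% were called higher. In Nur77-KO BMM 4 of 8 were called, 3 higher and 1 lower, against 37.8% of all genes called, 14.1% higher and 23.7% lower. The median difference over the 8 genes was 0.52 in WT and 0.22 in Nur77-KO, beside -0.06 and -0.08 over all genes. The share called either way is therefore near that over all genes. The share called higher lay above that over all genes in both genotypes, for genes chosen with earlier results known. The sizes for Batf and Junb were not compared with those of all genes.

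Batf, which pairs with Jun proteins and guides lymphocyte and dendritic cell programmes, measured 6.68, 7.00 and 6.62 in unstimulated WT BMM and 10.89, 10.88 and 11.15 with LPS. In Nur77-KO BMM it measured 6.67, 6.80 and 6.70 without stimulus and 11.18, 10.90 and 11.00 with LPS. The lowest LPS array lay far above the highest unstimulated array in each genotype. Batf rose 18.4-fold in WT (log2 difference 4.20, SE 0.26, limma adjusted p = 2.23e-09) and 19.7-fold in Nur77-KO (4.30, SE 0.26, adjusted p = 1.80e-09). As these are bulk cultures, more RNA per cell and more cells of a type cannot be told apart, here or in the results that follow.

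Junb, a Jun protein that often restrains the activity of Jun, measured 8.03, 8.44 and 7.93 in unstimulated WT BMM and 10.57, 10.35 and 10.52 with LPS. The Nur77-KO values were 7.54, 7.69 and 7.84 without stimulus and 10.15, 10.01 and 10.00 with LPS. Both genotypes were again separated by stimulus with no overlap. Junb rose 5.07-fold in WT (2.34, SE 0.17, adjusted p = 1.62e-08) and 5.14-fold in Nur77-KO (2.36, SE 0.17, adjusted p = 1.77e-08). The calls of Batf and Junb with LPS held under all 15 alternatives and with each of the 18 arrays left out.

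Fosl2, a Fos relative without the strong activation domain of Fos, differed in which genotype was called. In WT BMM it measured 9.12, 9.02 and 9.11 without stimulus and 10.09, 9.99 and 9.85 with LPS, a 1.86-fold rise (0.89, SE 0.29, adjusted p = 0.0227). In Nur77-KO BMM the values were 9.17, 9.24 and 9.40 without stimulus and 9.66, 8.82 and 8.90 with LPS (-0.14, SE 0.29, adjusted p = 0.759). The WT groups were apart and the Nur77-KO groups overlapped, with Nur77-KO LPS replicate 1 above the other pair. The difference between the genotypes' responses was -1.04 (SE 0.41) and was not called (adjusted p = 1.00, unadjusted p = 0.0241). The WT call was lost without WT none replicate 2, WT LPS replicate 1 or WT LPS replicate 2 (0.84 to 0.89, adjusted p of 0.0521 to 0.0661) with slide as a fixed block (0.68, adjusted p = 0.296) and under median scaling (0.77, adjusted p = 0.507).

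Jun, the main DNA-binding partner of Fos, went the other way. In Nur77-KO BMM it measured 8.08, 8.24 and 8.35 without stimulus and 7.58, 7.32 and 7.26 with LPS, and it fell by 0.84 (SE 0.22, 1.79-fold, adjusted p = 0.0063). In WT BMM the values were 7.98, 8.16 and 7.77 without stimulus and 7.19, 7.17 and 7.96 with LPS (-0.53, SE 0.22, adjusted p = 0.069). Only WT LPS replicate 3, one of the arrays that stand apart, reached into the unstimulated range, and without those 4 arrays the WT difference was -0.79 (SE 0.16, adjusted p = 0.00125). The genotypes did not differ detectably in this response (-0.31, 95% interval -0.97 to 0.35).

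Atf3, an inducible factor known to restrain inflammatory genes in macrophages, measured 10.12 to 10.44 in unstimulated Nur77-KO BMM and 10.68, 11.15 and 11.05 with LPS, a 1.62-fold rise (0.69, SE 0.19, adjusted p = 0.00898) that was not called under median scaling (0.19, adjusted p = 0.809). In WT BMM it measured 10.29, 10.71 and 9.95 without stimulus and 10.89, 10.77 and 10.70 with LPS, which overlap (0.47, adjusted p = 0.0655). Fos and Egr1 were not called with LPS in either genotype on all 18 arrays. Fos was at -0.28 in WT and -0.54 in Nur77-KO (SE 0.38 each), and Egr1 at -0.01 and -0.54 (SE 0.26 each). Without Nur77-KO LPS replicate 1, which had the highest Fos and Egr1 of its group, the Nur77-KO differences were -1.16 for Fos (adjusted p = 0.00219) and -0.75 for Egr1 (adjusted p = 0.0445), both called lower. Leaving out the highest value lowers the group mean by construction, and that array was singled out after the data were seen. Jund, a largely constitutive Jun protein, was dim, with a probe detected on 12 of 18 arrays (2 per group), and its values of 4.93 to 6.52 overlapped in every comparison. Markers of other states moved with LPS as well: the mean of 6 heat-shock genes was 8.09 to 8.42 in unstimulated and 10.17 to 10.32 in LPS-treated WT BMM. The neutrophil list, with 9 of 10 genes tested, went from 5.59 to 5.94 up to 7.12 to 7.99 in WT, with 4 genes called higher. In Nur77-KO its mean was 7.18 to 7.27 without stimulus and 7.40 to 8.39 with LPS. There 2 genes were called higher and the median difference was -0.03. The part of these markers in these results was not tested.

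IL-4 was accompanied by higher Egr1, Fosl2, Atf3 and Batf in both genotypes. Fos was called lower in WT, and the difference between the genotypes' Fos responses was not called (1.27, adjusted p = 1.00). Of the 8 genes, 5 were called in WT (4 higher, 1 lower), where 6.76% of all genes were called, 3.68% of all genes higher and 3.08% lower. In Nur77-KO 5 were called, all higher, against 5.55% of all genes called and 3.12% called higher. The median difference was 0.82 in WT and 0.77 in Nur77-KO, and -0.01 and -0.00 over all genes. The share of called genes thus lay well above the share over all genes. As the genes were chosen with earlier results of these arrays known, this share is no independent evidence about the family. All 10 of these calls were lost under median scaling, which gave the same directions (adjusted p of 0.239 to 1.00). Its WT values ranged from -1.70 for Fos to 1.39 for Fosl2, and its Nur77-KO values, all smaller by over 1.5 times, were 0.94 for Batf, 0.84 for Egr1, 0.81 for Fosl2, 0.38 for Atf3 and 0.19 for Junb. The calls of Fosl2, Atf3 and Batf in WT were lost when only the 6 arrays compared were fitted (adjusted p of 0.0647 to 0.102), as was that of Junb in Nur77-KO (adjusted p = 0.0681). The unstimulated arrays serve both the LPS and the IL-4 comparison, which are therefore not independent. Over the macrophage list the mean was 11.55 to 11.63 in unstimulated WT BMM and 11.66, 10.98 and 10.95 on the WT IL-4 arrays, and 11.34 to 11.42 and 11.50, 10.83 and 10.80 in Nur77-KO. The neutrophil mean went from 5.59 to 5.94 up to 6.06 to 7.15 in WT, and was 7.18 to 7.27 without stimulus and 7.00 to 8.29 with IL-4 in Nur77-KO. Their part in the IL-4 differences was not tested.

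Egr1, a zinc finger immediate early factor that is not a leucine zipper protein, measured 10.11, 9.99 and 10.14 in unstimulated WT BMM and 11.03, 11.69 and 11.86 with IL-4. The Nur77-KO values were 10.18, 10.16 and 10.35 without stimulus and 11.19, 11.64 and 11.85 with IL-4. Every IL-4 array was above every unstimulated array. Egr1 rose 2.72-fold in WT (1.45, SE 0.26, adjusted p = 0.00243) and 2.51-fold in Nur77-KO (1.33, SE 0.26, adjusted p = 0.00535), and the difference between the 2 responses was -0.12 (95% interval -0.90 to 0.67). With slide as a fixed block the Nur77-KO difference was 1.03 (adjusted p = 0.122).

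Fosl2 with IL-4 measured 9.87, 10.96 and 11.31 in WT and 10.27, 10.70 and 10.83 in Nur77-KO, again above all unstimulated arrays. This was 3.10-fold in WT (1.63, SE 0.29, adjusted p = 0.00243) and 2.52-fold in Nur77-KO (1.33, SE 0.29, adjusted p = 0.0121). The Nur77-KO call was lost without Nur77-KO none replicate 1 or Nur77-KO IL-4 replicate 3 (1.28 and 1.22, adjusted p = 0.0553 and 0.0561), with slide as a fixed block (1.32, adjusted p = 0.134) and with the mean over its detected probes (0.66, adjusted p = 0.128). Batf with IL-4 stood at 8.85, 7.75 and 7.78 in WT and 8.56, 8.20 and 7.75 in Nur77-KO. That is between its unstimulated and its LPS levels in both genotypes, 2.57-fold above no stimulus in WT (1.36, SE 0.26, adjusted p = 0.00339) and 2.72-fold in Nur77-KO (1.45, SE 0.26, adjusted p = 0.00244).

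Atf3 rose 1.91-fold with IL-4 in WT, to 10.99, 11.32 and 11.45 (0.93, SE 0.19, adjusted p = 0.00661), and 1.78-fold in Nur77-KO, to 10.96, 11.19 and 11.16 (0.84, SE 0.19, adjusted p = 0.0159). The Nur77-KO call was lost when Nur77-KO none replicate 2 or 3 or Nur77-KO IL-4 replicate 2 or 3 was left out (0.76 to 0.83, adjusted p of 0.0579 to 0.0847). Junb with IL-4 was called in Nur77-KO (0.71, SE 0.17, adjusted p = 0.0212) and not in WT (0.47, SE 0.17, adjusted p = 0.125). The IL-4 values of Junb were 8.81, 8.39 and 8.63 in WT and 8.69, 8.28 and 8.23 in Nur77-KO, and its Nur77-KO call was lost without Nur77-KO none replicate 1 or 2 or Nur77-KO IL-4 replicate 1 (0.56 to 0.71, adjusted p of 0.0761 to 0.107) with slide as a fixed block (0.82, adjusted p = 0.101) and without the 2 Nur77-KO arrays low in Y-linked genes (0.56, adjusted p = 0.0877). The genotypes' Junb responses to IL-4 differed by 0.23 (95% interval -0.28 to 0.75). Jun was higher with IL-4 on every array of both genotypes but was not called (0.71 in WT, adjusted p = 0.0698, and 0.46 in Nur77-KO, adjusted p = 0.324, which became -0.06 under median scaling).

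Fos was the only one of the 8 genes called lower with IL-4, in WT. It measured 9.94, 9.98 and 9.99 in unstimulated WT BMM and 7.70, 8.70 and 8.71 with IL-4, and fell by 1.60 on the log2 scale (SE 0.38, 3.04-fold, adjusted p = 0.0175). In Nur77-KO it measured 8.51, 8.59 and 8.77 without stimulus and 8.26, 8.10 and 8.52 with IL-4 (-0.33, SE 0.38, adjusted p = 0.794). The lowest WT IL-4 value came from replicate 1, one of the arrays that stand apart, and without it the difference was -1.27 (adjusted p = 0.0749). The call was also lost without any 1 of the 3 unstimulated WT arrays (adjusted p of 0.0548 to 0.0567) and with slide as a fixed block (-1.58, adjusted p = 0.0706). Without all 4 arrays that stand apart it was called (-1.27, SE 0.16, adjusted p = 0.000235). On the slides that hold both groups, the difference was -2.24 on slide 1 and -1.29 on slide 4. The genotypes' responses differed by 1.27 (SE 0.54), which was not called (adjusted p = 1.00, unadjusted p = 0.0331).

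**Figure D2:**
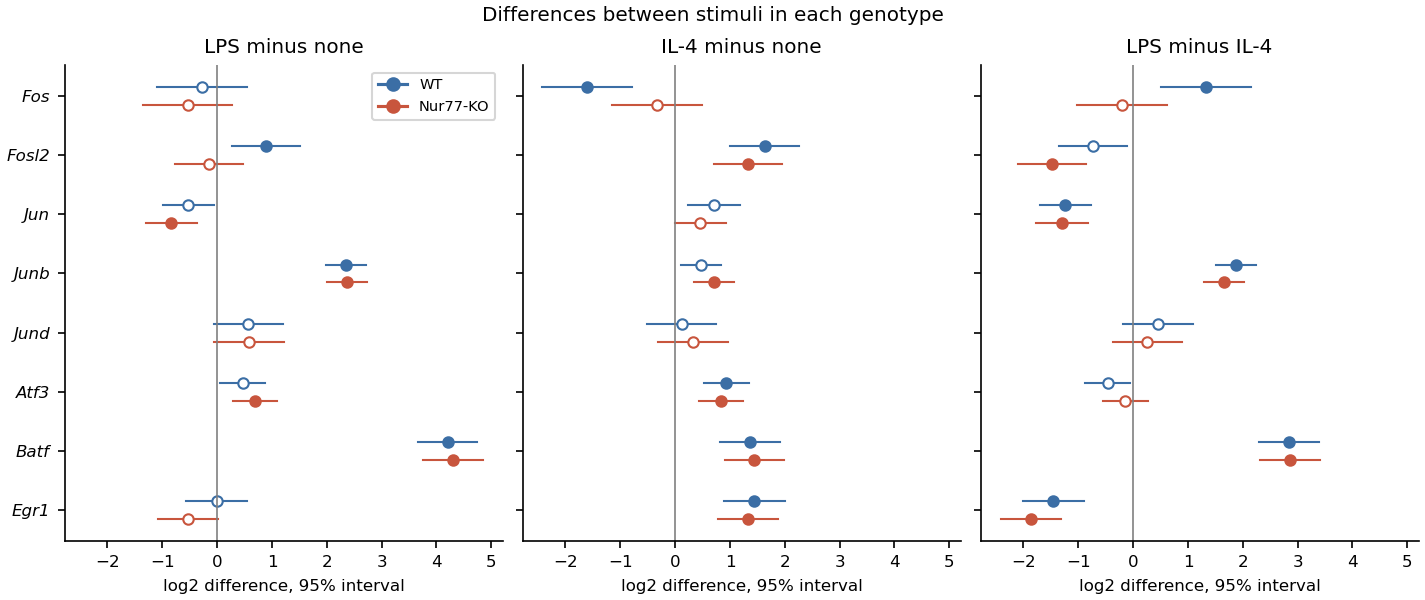
Log2 differences (x axis) with 95% intervals for the 8 genes, LPS minus none, IL-4 minus none and LPS minus IL-4, blue for WT and red for Nur77-KO, with filled points where the adjusted p was under 0.05. Batf and Junb lie far to the right with LPS, Egr1 and Fosl2 lie to the right with IL-4, and Fos in the IL-4 minus none and LPS minus IL-4 panels has a filled WT point and an open Nur77-KO point.

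The time-matched comparison of LPS with IL-4 separated the genes into those higher with LPS and those higher with IL-4. Of the 8 genes, 5 were called in each genotype, with 3 higher and 2 lower in WT and 2 higher and 3 lower in Nur77-KO, against 38.4% of all genes called in WT (15.1% higher, 23.4% lower) and 36.8% in Nur77-KO (13.8% higher, 23% lower). Batf was 7.17-fold and Junb 3.65-fold higher with LPS in WT (2.84, SE 0.26, and 1.87, SE 0.17), and 7.24-fold and 3.14-fold higher in Nur77-KO. Egr1 was lower with LPS by 1.45 in WT (SE 0.26, adjusted p = 0.000268, and 0.111 under median scaling) and by 1.87 in Nur77-KO (SE 0.26, adjusted p = 2.52e-05). Jun was lower with LPS in both genotypes, 2.36-fold in WT (adjusted p = 0.000252) and 2.46-fold in Nur77-KO (adjusted p = 0.00018). Fosl2 was lower with LPS in Nur77-KO (2.78-fold, adjusted p = 0.000748, but -0.57 and 0.0624 with the mean over its detected probes and -1.68 and 0.0892 under median scaling) and at -0.74 in WT (adjusted p = 0.0587). Fos was 2.51-fold higher with LPS than with IL-4 in WT (1.33, SE 0.38, adjusted p = 0.0114), a call lost without WT IL-4 replicate 1 (0.99, adjusted p = 0.0633) with slide as a fixed block (1.44, adjusted p = 0.0504) and under median scaling (1.31, adjusted p = 0.233), and stood at -0.21 in Nur77-KO (adjusted p = 0.731).

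The 4 arrays that stand apart also stood apart in this set. With LPS, Egr1 measured 10.60 on WT replicate 3 beside 9.80 and 9.82 on the others, and 10.12 on Nur77-KO replicate 1 beside 9.49 and 9.47. With IL-4 it was lowest on the arrays that stand apart, 11.03 in WT and 11.19 in Nur77-KO. Batf with IL-4 was highest there, 8.85 and 8.56, and Fosl2 was lowest, 9.87 and 10.27. Without the 4 arrays the difference of Egr1 between LPS and IL-4 was -1.97 (SE 0.13) in WT and -2.27 (SE 0.13) in Nur77-KO, and that of Fosl2 was called in both genotypes (-1.10 and -1.90). The number of the 8 genes called then rose to 5 in WT and 7 in Nur77-KO for LPS against no stimulus, where 45.8% and 45% of all genes were called in that fit.

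Between the genotypes, none of the 8 genes was called in any stimulus state on all 18 arrays, and Fos had the largest difference of the 8 without stimulus and with LPS. Fos was picked with its lower value in unstimulated Nur77-KO cells on these arrays already known. Its rank and p-values in that comparison are therefore no independent evidence of the difference. The same holds for Fos with LPS, as earlier results of these arrays were known when the genes were chosen. Without stimulus 0.105% of all genes were called, with LPS 0.193% and with IL-4 0.0403%. At an unadjusted p under 0.05 in limma, 2 of the 8 genes passed without stimulus, 3 with LPS and 0 with IL-4, out of 628, 1040 and 587 genes in all. The groups did not overlap for 4 of the 8 genes without stimulus (19% of all genes), 3 with LPS (12%) and 0 with IL-4 (7.67%). The median difference over the 8 genes was 0.02 without stimulus, -0.22 with LPS and -0.04 with IL-4, beside 0.00, 0.00 and 0.01 over all genes. For the difference between the genotype effects, none of the 8 genes was called either, where 0.0161% of all genes were called for LPS minus no stimulus, 0.00805% for IL-4 minus no stimulus and 0% for LPS minus IL-4.

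Fos measured 9.94, 9.98 and 9.99 in unstimulated WT BMM against 8.51, 8.59 and 8.77 in Nur77-KO, 2.54-fold lower in Nur77-KO (-1.35, SE 0.38, adjusted p = 0.351, unadjusted p = 0.00302 by limma). With LPS it measured 9.67, 9.70 and 9.71 in WT and 9.33, 7.23 and 7.70 in Nur77-KO (-1.61, SE 0.38, adjusted p = 0.158, unadjusted p = 0.000726). With IL-4 the values overlapped (-0.08, 95% interval -0.89 to 0.74). All 6 Nur77-KO arrays of the first 2 states lay below all WT arrays of their state. Within slides, the unstimulated difference was -1.47 on slide 2 and -1.22 on slide 4, the LPS difference -2.01 on slide 6, and the IL-4 differences -0.45 on slide 4 and -0.19 on slide 6, each from 1 array against 1. The genotype difference with LPS minus that with IL-4 was -1.53 (SE 0.54, adjusted p = 0.934, unadjusted p = 0.0125).

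The SE of Fos rested on 1 array. Nur77-KO LPS replicate 1 read 9.33, while the other 2 arrays of its group read 7.23 and 7.70. Without that array the Fos SE without stimulus went from 0.38 to 0.23. Fos was then called lower in Nur77-KO both without stimulus (-1.35, adjusted p = 0.0219) and with LPS (-2.23, adjusted p = 0.000847). The LPS genotype difference minus that with IL-4 was called too (-2.15, adjusted p = 0.0365). The unstimulated call reuses values that were known when Fos was picked, and the calls with LPS reuse arrays whose earlier results were known. Nur77-KO LPS replicate 1 was left out after its high Fos value had been seen. Its omission lowers the LPS mean and the SE by construction. A fit of the 6 unstimulated arrays alone also called Fos (SE 0.11, adjusted p = 0.00186), and among the LPS arrays alone it was not called (SE 0.51, adjusted p = 0.768). Without the 4 arrays that stand apart, Fosl2 was called lower in Nur77-KO with LPS as well (-1.18, SE 0.14, adjusted p = 0.00059), and its genotype difference with LPS minus that without stimulus was called (-1.36, adjusted p = 0.00507). On all 18 arrays Fosl2 with LPS was at -0.85 (SE 0.29, adjusted p = 0.369).

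Other RNA differed between the same arrays as Fos. The Y-linked gene Eif2s3y measured 4.53 to 4.71 in unstimulated WT BMM and 9.05 to 9.68 in unstimulated Nur77-KO BMM, so genotype and the level of Y-linked genes cannot be told apart there. On Nur77-KO LPS replicate 1, Eif2s3y measured 4.53 beside 9.26 and 9.08 on the other arrays of its group, as on the WT arrays, and Nur77-KO IL-4 replicate 1 measured 4.59 beside 9.40 and 8.91. These 2 arrays differ from the other Nur77-KO arrays in this way. Y-linked genes do not measure the Nur77 genotype and the Nr4a1 probe cannot check it. Whether the labels of these 2 arrays are right was not tested. Without both, Fos was called lower in Nur77-KO without stimulus (-1.35, adjusted p = 0.014) and with LPS (-2.23, adjusted p = 0.00067). The IL-4 difference was then -0.06 (SE 0.26). Over the 7 tested of 10 stromal cell genes, the mean was 6.13 to 6.41 in unstimulated WT and 7.58 to 7.87 in Nur77-KO, with 4 to 5 and 6 to 7 of the 7 detected. Over the 9 tested of 10 neutrophil genes it was 5.59 to 5.94 and 7.18 to 7.27, with 3 to 4 and 8 of the 9 detected. Of the 7 stromal, 9 neutrophil and 3 Y-linked genes tested, 0 were called between the genotypes without stimulus. Nur77-KO LPS replicate 1 had a stromal mean of 5.34 beside 7.73 and 7.48 in its group, and a neutrophil mean of 8.39 beside 7.40 and 7.53. Of 4 dendritic cell genes 0 or 1 was detected on each unstimulated array in both genotypes. The part of these cells and of the Y-linked genes in the Fos difference was not tested.

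**Figure D3:**
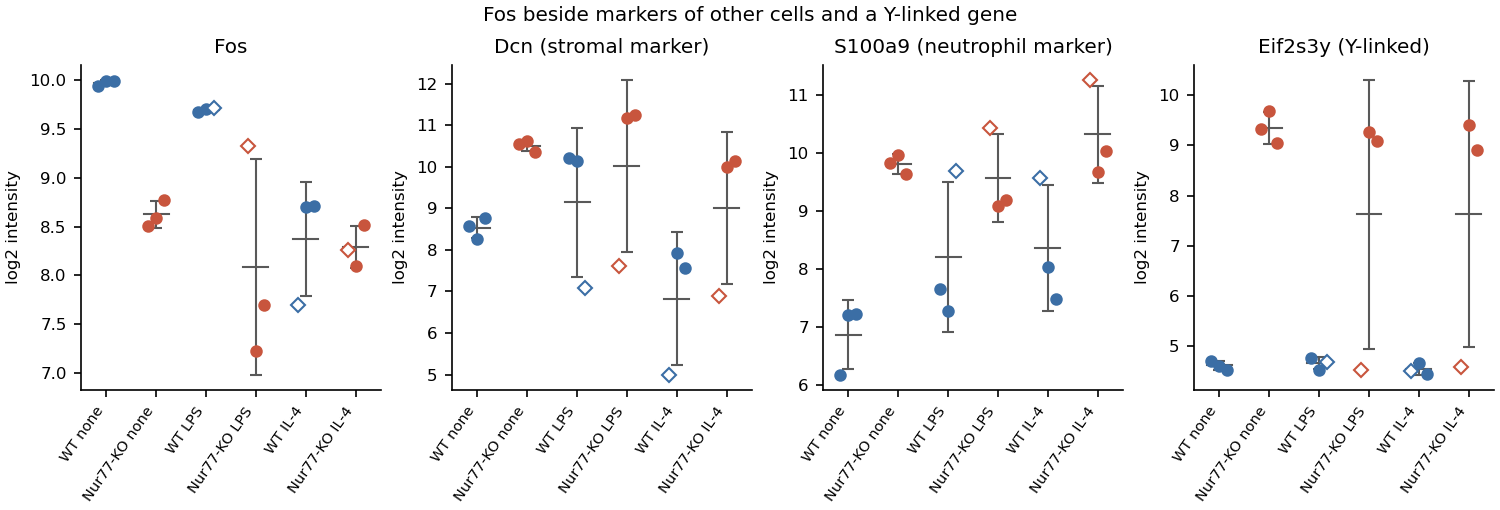
Log2 intensity (y axis) of Fos, the stromal cell gene Dcn, the neutrophil gene S100a9 and the Y-linked gene Eif2s3y on each array by group (x axis), blue for WT and red for Nur77-KO, with mean and SD, and open diamonds for the 4 arrays that stand apart. Nur77-KO LPS replicate 1 lies near the WT arrays for Fos (9.33) and Eif2s3y (4.53) and far below its own group for Dcn (7.62).

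Junb was the other gene with an unadjusted p under 0.05 in both of these states. It measured 7.93 to 8.44 in unstimulated WT and 7.54 to 7.84 in Nur77-KO (-0.45, SE 0.17, adjusted p = 0.755), and 10.35 to 10.57 and 10.00 to 10.15 with LPS (-0.43, SE 0.17, adjusted p = 0.483). Median scaling shifted the median of all genes by 0.466 between the unstimulated genotypes, and there the difference of Junb changed sign (0.21) and that of Fos became -0.63 (adjusted p = 0.552). The intervals for Batf were -0.59 to 0.50 without stimulus, -0.49 to 0.60 with LPS and -0.50 to 0.58 with IL-4. Those for Atf3 were -0.46 to 0.36, -0.23 to 0.58 and -0.56 to 0.26. These bound a genotype difference but do not show that there is none.

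**Figure D4:**
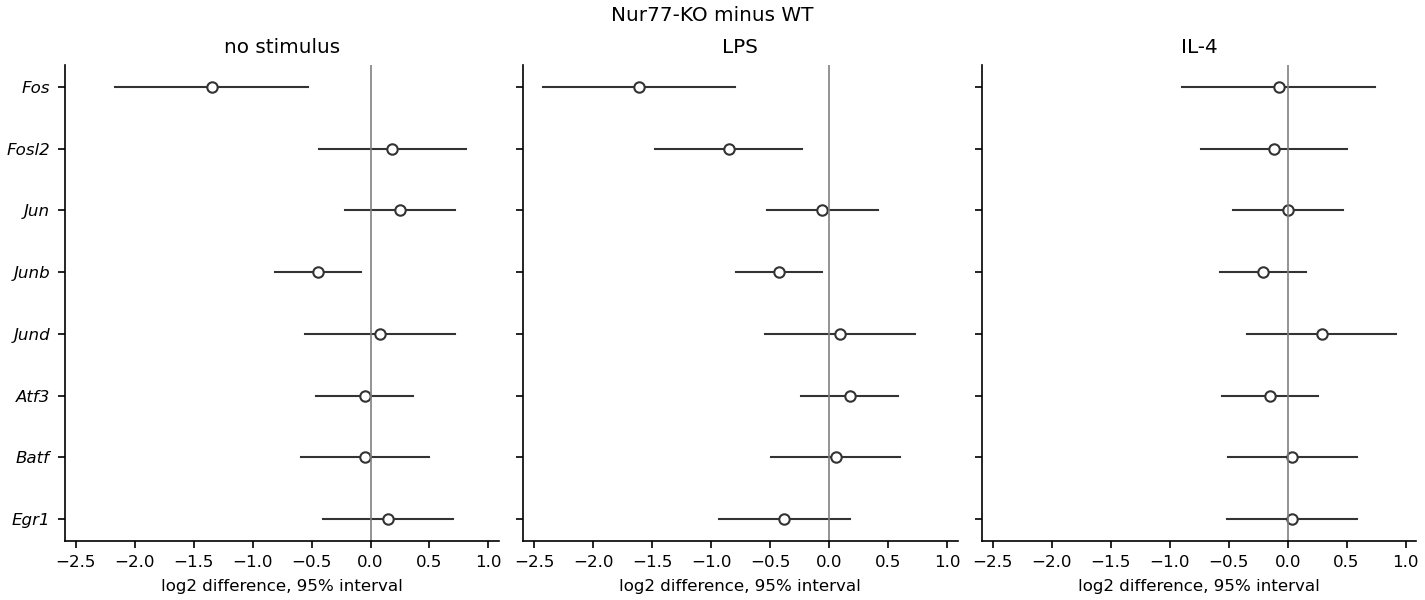
Log2 difference of Nur77-KO minus WT (x axis) with 95% intervals for the 8 genes without stimulus, with LPS and with IL-4, from all 18 arrays, with open points because none had an adjusted p under 0.05. The Fos intervals without stimulus (-2.16 to -0.53) and with LPS (-2.43 to -0.79) exclude 0, and that with IL-4 (-0.89 to 0.74) does not.

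In the order of group means, Fos was highest in unstimulated WT BMM (9.97 ± 0.03, SD, n = 3), followed by WT with LPS (9.70 ± 0.02), with no overlap between them or with the next. The other 4 groups, unstimulated Nur77-KO (8.63 ± 0.13), WT IL-4 (8.37 ± 0.58), Nur77-KO IL-4 (8.29 ± 0.21) and Nur77-KO LPS (8.08 ± 1.10), overlapped each with its neighbour. Batf fell into 3 separate steps, LPS (11.03 ± 0.14 in Nur77-KO and 10.97 ± 0.15 in WT), IL-4 (8.17 ± 0.41 and 8.13 ± 0.63) and no stimulus (6.77 ± 0.20 in WT and 6.72 ± 0.07), with the genotypes overlapping in each. Egr1 had its IL-4 groups on top (11.56 ± 0.34 in Nur77-KO and 11.52 ± 0.44 in WT), clear of the rest.

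Of the remaining members, Fosb was read by 1 probe that was detected on 0 arrays (4.50 to 5.25), and Fosl1 had no probe named to it. Fosl2 had 3 probes, detected on 18, 4 and 0 arrays, and Junb 2 probes, detected on 18 and 0 arrays. The genes whose pattern was most like that of Fos over the 18 arrays were Gm5150 (Pearson r 0.89), Atp10d (0.797) and Adora3 (0.793). For Egr1 they were Ctu2 (0.973), Ppan (0.969) and Trmt61a (0.964), for Atf3 Hbegf (0.913), Itsn2 (0.893) and Rnf19b (0.886), and for Batf Tent5a (0.992), Acod1 (0.992) and Tor3a (0.991). These are descriptions across arrays that share groups and slides.

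Of the close relatives of Batf and Egr1, Batf2, Batf3 and Egr2 split by stimulus. Batf2 moved like Batf with LPS, from 5.93 to 6.26 up to 10.90 to 11.15 in WT (4.86, SE 0.29, adjusted p = 1.74e-09) and from 5.70 to 6.19 up to 10.98 to 11.49 in Nur77-KO (5.16, SE 0.29, adjusted p = 8.51e-10). Batf3, which supports development of cross-presenting dendritic cells, was high with IL-4 instead, at 9.34 to 9.68 in WT and 8.91 to 9.67 in Nur77-KO, and rose by 3.66 and 3.23 over no stimulus (SE 0.22, adjusted p = 4.29e-08 and 2.33e-07). Batf3 was not detected on any LPS array, which puts IL-4 at least 13.0-fold above LPS in WT and at least 11.6-fold in Nur77-KO. Batf itself rose with both stimuli. Egr2, a relative of Egr1, rose with IL-4 in both genotypes (2.93 and 3.15, SE 0.28, adjusted p = 6.83e-06 and 3.95e-06) and fell with LPS by 2.18 in WT (SE 0.28, adjusted p = 1.12e-05) and 0.89 in Nur77-KO (SE 0.28, adjusted p = 0.0203). On Nur77-KO LPS replicate 1, Egr2 measured 7.03, within the WT LPS range of 7.02 to 7.45, beside 8.50 and 8.53 on the other arrays of its group, and without that array the Nur77-KO difference was -0.40 (SE 0.15, adjusted p = 0.0595). The Nur77-KO call was also lost without Nur77-KO none replicate 1 or 3 (-0.82 and -0.85, adjusted p = 0.0697 and 0.0602). Egr3, another relative of Egr1, was called lower with LPS in both genotypes (measured -1.22 in WT and -1.21 in Nur77-KO). It was not detected on any WT LPS array, which puts it at least 1.34-fold below no stimulus there. In Nur77-KO, replicate 2 was the only LPS array that detected it. Both calls were lost when single arrays were left out (adjusted p of up to 0.0847 and 0.0934). Egr3 was not called with IL-4 in either genotype. Jdp2, a repressor that pairs with Jun, rose with LPS by 4.14 in WT and 3.63 in Nur77-KO and with IL-4 by 1.64 and 1.20 (SE 0.29 each), the last of which was lost without any 1 unstimulated Nur77-KO array or Nur77-KO IL-4 replicate 1 (adjusted p of 0.0659 to 0.0952).

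**Figure D5:**
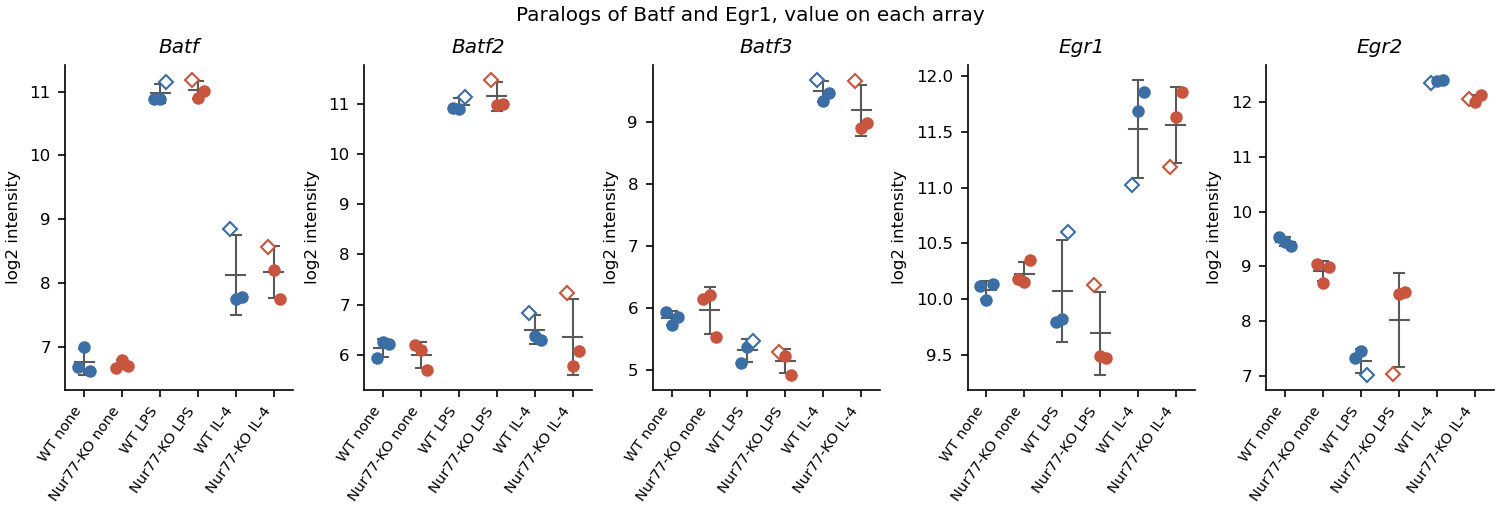
Log2 intensity (y axis) of Batf, Batf2, Batf3, Egr1 and Egr2 on each array by group (x axis), blue for WT and red for Nur77-KO, with mean and SD, and open diamonds for the 4 arrays that stand apart. Batf2 is high with LPS, Batf3 and Egr2 are high with IL-4, and Batf is high with LPS and intermediate with IL-4.

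Of 22 other basic leucine zipper genes listed, 18 were tested. With LPS 6 were called higher and 2 lower in WT, and 6 and 3 in Nur77-KO, with medians of 0.29 and 0.15, near the 39.8% and 37.8% of all genes called, while with IL-4 2 were called higher and 0 lower in each genotype (medians 0.03 and 0.27). Cebpb, a regulator of the inflammatory response, rose with LPS by 1.89 in WT and 1.95 in Nur77-KO (SE 0.13 each), and Cebpa, a factor of myeloid differentiation, was called lower (adjusted p = 4.04e-05 and 5.06e-05) and not detected on any LPS array, at least 1.69-fold below no stimulus in WT and at least 2.24-fold in Nur77-KO. Of 24 other immediate early genes 19 were tested. In WT, 9 were called higher and 3 lower with LPS (median 0.61) and 5 higher and 1 lower with IL-4 (0.40). In Nur77-KO 10 were called higher and 3 lower with LPS (0.82) and 5 higher and 0 lower with IL-4 (0.21). Of all genes, 39.8% were called with LPS and 6.76% with IL-4 in WT, and 37.8% and 5.55% in Nur77-KO. Dusp2, a MAP kinase phosphatase, rose most with LPS (6.00 in WT and 5.04 in Nur77-KO, SE 0.41 each), followed by Gadd45b, a stress-induced gene (3.70 and 3.63), and Csrnp1, a nuclear immediate early protein (3.26 and 3.12). Dusp1, another such phosphatase, rose with LPS in WT by 2.71 (SE 0.27). Plk3, Ier3 and Csrnp1 rose with IL-4 in both genotypes (2.20, 1.89 and 1.63 in WT).

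The list of upstream kinases and ternary complex factors also held Nab1 and Nab2, which are neither. Nab1 was called higher with LPS in both genotypes. Of the 19 listed genes 14 were tested. With LPS 5 were called higher and 2 lower in WT and 6 and 3 in Nur77-KO (medians 0.39 and 0.23), beside the same 39.8% and 37.8% of all genes, and 0 were called with IL-4 in either genotype (medians 0.20 and 0.14). Mapkapk2, a kinase below p38, rose by 2.35 in WT and 2.31 in Nur77-KO with LPS (SE 0.19 each), and Map3k8, a kinase above ERK, by 1.77 and 1.68 (SE 0.22 each). Mapk14, a p38 kinase, was called lower with LPS in both genotypes (-1.26 in WT and -1.34 in Nur77-KO, SE 0.17 each). Of 16 textbook AP-1 target genes 15 were tested. Of these, 10 were called higher and 2 lower with LPS in WT (median 1.41) and 9 and 1 in Nur77-KO (0.94). The background shares for LPS were 15.5% up and 24.3% down in WT, and 14.1% and 23.7% in Nur77-KO. Il6 and Il1b in this list are also among the 4 LPS response genes used to check the labels. The part of AP-1 in these counts was not tested. For IL-4 the background shares, either way, were 6.76% in WT and 5.55% in Nur77-KO. There 1 target gene was called higher and 2 lower in each genotype (medians -0.07 and 0.04). Those were the adhesion receptor gene Cd44, higher (0.84 in WT and 0.93 in Nur77-KO), and the haem-degrading enzyme gene Hmox1 and the growth factor gene Vegfa, lower (-1.24 and -0.62 in WT, -0.70 and -0.67 in Nur77-KO). Those of Vegfa in both genotypes and of Hmox1 in Nur77-KO were lost when single arrays were left out (adjusted p of up to 0.159 and 0.108). Il1b rose by 9.29 and 9.86 (SE 0.40 each) and Tnf by 6.82 and 7.62 (SE 0.28 each) with LPS, and Il6, not detected on any unstimulated array, was at least 41.4-fold higher in WT and at least 29.0-fold in Nur77-KO. None of the genes in these 4 lists was called between the genotypes in any state.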

How the data were processed

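Total RNA of 18 BMM cultures was hybridised to 1-colour Illumina bead arrays. Per the file headers, the deposited scanner tables hold 1 mean intensity and 1 detection p-value per probe. The authors background-corrected these intensities against control probes, quantile-normalized them and took log2, and the deposited log2 values were used here as given. GenomeStudio 2011.1, R 2.14.0 and limma 3.10.2 are the versions in the submitters' processing notes. Of 45281 probes, 34885 had 1 gene symbol in the platform annotation, 18 had several and 10378 were not listed. A probe entered if it had 1 symbol and was detected (p-value under 0.05) on any array, and each of 12417 genes was read from its brightest such probe. A model of group means over the 18 arrays was fitted with limma 3.58.1 in R 4.3.3, with moderated variances and Benjamini-Hochberg adjustment over all genes in each of 12 comparisons, and a gene was called at an adjusted p under 0.05. "Not detected" means a detection p-value of at least 0.05 on every array of a group, and folds against such a group are lower bounds set at the lowest signal detected on each array. Group sizes of 3 limit the precision. The fit was tested on simulated data. Columns of the deposited tables were tied to samples by their names.

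The 10 genes, the gene lists and the comparisons were chosen with earlier results of these arrays known. All 10 genes are named, with up to 4 called genes of each list and kind of comparison (largest difference first) and the 3 genes most correlated with Fos, Egr1, Atf3 and Batf. Mapk14 and Egr3 are named in addition. Values of single arrays of Batf2, Batf3 and Egr2 and of the marker genes Eif2s3y, Dcn and S100a9 were picked out after they had been seen. Alternatives changed the background correction, normalization, detection filter, choice of probe, arrays fitted, slide or replicate blocks and variance prior, and left out each array in turn.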

Additional observations from a re-analysis of the deposited data

How the results depend on the processing

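Of 29 named differences (all called ones and Fos between genotypes without stimulus and with LPS), 12 kept their side of the threshold under all 15 alternatives and all 18 single-array omissions: Junb and Batf with LPS against no stimulus and against IL-4 in both genotypes, Jun with LPS against no stimulus in Nur77-KO and against IL-4 in both, and Egr1 with LPS against IL-4 in Nur77-KO. None of the 29 reversed. The causes of the other changes were not tested.

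The number of the 8 genes called changed by over 1.5 times as follows. With median scaling it was 0 for IL-4 against no stimulus in both genotypes and 3 for LPS against IL-4 in WT. With only the groups compared it was 2 for IL-4 in WT and 1 (Fos) for Nur77-KO against WT without stimulus. Smaller changes under the other alternatives were of 1 or 2 genes either way, and in Nur77-KO the count went from 5 to 4 with the mean of a gene's probes (IL-4 against no stimulus and LPS against IL-4, without Fosl2) and with only the groups compared (IL-4 against no stimulus, without Junb). With slide as a fixed block it was 2 for IL-4 in Nur77-KO. Without the 2 Nur77-KO arrays low in Y-linked genes it was 1 between genotypes without stimulus, 1 with LPS and 1 for the LPS minus the IL-4 genotype difference. Without the 4 arrays that stand apart it was 5 for LPS in WT, 7 for LPS in Nur77-KO, 1 and 2 between genotypes without stimulus and with LPS, and 1 each for the LPS genotype difference minus that without stimulus and minus that with IL-4. The shares of all genes called in that last fit were 45.8%, 45%, 3.79%, 5.31%, 0.668% and 0.564%. Leaving out 1 array in turn gave 2 to 4 for LPS against no stimulus in WT and 4 to 6 in Nur77-KO, 4 to 6 for IL-4 in WT and 3 to 5 in Nur77-KO, 5 to 6 for LPS against IL-4 in each genotype, 0 to 1 between genotypes without stimulus and with LPS, 0 to 0 with IL-4, and 0 to 1 for the LPS minus the IL-4 genotype difference, with 0 to 0 for the other 2 such differences.

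Replicate numbers were shared by the labels of all groups, but arrays of the same number did not deviate together in every pair (mean r 0.0583, range -0.318 to 0.524), and 11 of 18 arrays correlated best with their own number. The replicate block left the number of the 8 genes called at 3 and 4 for LPS, 5 and 5 for IL-4, 5 and 5 for LPS against IL-4 and 0 between genotypes, with Fos at an adjusted p of 0.394 without stimulus and 0.18 with LPS. Median scaling shifted the median of all genes by 0.466 between the unstimulated genotypes, 0.212 between those with IL-4, -0.384 for LPS and -0.314 for IL-4 in Nur77-KO, and -0.104 for IL-4 in WT. Of 177 called values of list genes, 175 kept their sign under it (not Mapk9 and Map2k4 with LPS in Nur77-KO) and 110 stayed called. Jund and Fosb lie at or near the detection limit.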
